A study of Neurospora crassa with 86 samples.

Results

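The genes described here are 4 xylanases and 2 polygalacturonases of the filamentous fungus Neurospora crassa, chosen by name as 6 of the 9758 genes in the deposited per-sample tables. The xylanases are gh11-1 (NCU02855), gh11-2 (NCU07225), gh10-1 (NCU05924) and gh10-2 (NCU08189). The polygalacturonases are gh28-1 (NCU02369) and gh28-2 (NCU06961). The symbols carry the glycoside hydrolase family (GH11, GH10 and GH28) and came from the RefSeq gene table, assembly NC12, and all 6 genes had an entry of their own in the joint table and passed the filter on low values.

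Xylanases of both families cut the xylan backbone of hemicellulose, and polygalacturonases cut the homogalacturonan backbone of pectin. N. crassa secretes these enzymes to feed on plant cell walls, and their transcripts are known to be repressed by easily used sugars such as sucrose. Specific induction on plant polymers is known to need transcription factors such as xlr-1 for xylan and pdr-1 and pdr-2 for pectin, while cre-1 acts in carbon catabolite repression. None of the media held xylan or pectin.

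RNA was sequenced from mycelia in 86 libraries of 27 combinations of strain and medium, described by the labels as biological replicates. Conidia were grown for 24 h at 2% sucrose, and the washed mycelia spent 4 h in the test medium. The Δamn-1 strain gave 12 libraries in 4 media: 2 mM mannose with 25 mM ammonium nitrate, and sucrose with isoleucine, proline or tryptophan. The Δnit-2 strain gave 15 libraries in 5 media (nitrate, isoleucine, proline, tryptophan and the full medium). Libraries labelled Δnit-4 numbered 6 in nitrate and without nitrogen, and Δnmr libraries numbered 6 without nitrogen and in the full medium. nit-2, nit-4 and amn-1 code for transcription factors, and nmr for a protein that holds nit-2 in check. The wild type, strain FGSC 2489, gave 47 libraries in 14 media. These were mannose, no carbon source with 25 mM ammonium nitrate, sucrose without nitrogen, sucrose with a single nitrogen source, and the full medium of 2% sucrose and 25 mM ammonium nitrate. As single source, arginine was given at 344 mM, glycine at 200 mM, alanine at 112 mM, and each of tryptophan, proline, isoleucine, glutamine, glutamate, nitrate and ammonium at 50 mM. Groups held 3 libraries, except wild type in the full medium (5) and without nitrogen (6). Whether a deletion strain is 1 clone is not given in the sources used here.

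Levels are FPKM, fragments scaled to gene length and to mapped fragments, as mean ± SD. Differences are of log2(FPKM + 1), the first group minus the second, with a standard error (SE). This scale understates differences of genes near 0, and on it a fall from under 1 FPKM cannot reach 1 log2. The p-values measure the spread between libraries labelled as biological replicates. This spread is 1 estimate per gene, pooled over all 27 groups, so an SE is not the spread of the groups compared. For genes near 0 in most groups, an SE can understate the spread of groups at higher levels. A gene was called when limma's Benjamini-Hochberg adjusted p over the 8558 genes tested was under 0.05 and the difference was at least 1 log2. The libraries held an estimated 6890000 to 19110000 fragments, and 1 fragment was worth 0.0195 to 0.164 FPKM for these genes. gh10-1 was at 0 in 24 of 86 libraries, gh11-2 in 18 and gh10-2 in 1. In mycelium, fewer cells that express a gene and less RNA per cell cannot be told apart.

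The labels were read against the deleted genes. nit-2 lay between 3.30 and 6.61 FPKM in Δnit-2 libraries, against 34.99 to 73.7 FPKM in wild type of the same media. nmr and amn-1 were also lower in their deletion strains in every medium without overlap, but for amn-1 the gap varied. amn-1 lay at 0.274 to 0.392 FPKM in Δamn-1 mannose, against 23.5 to 37.1 FPKM in wild type. In isoleucine it lay at 1.68 to 2.29 FPKM, against 11.5 to 13.8 FPKM. The gap was smaller in proline (4.39 to 5.08, against 8.94 to 10.1 FPKM) and tryptophan (4.66 to 5.48, against 8.62 to 10.4 FPKM). In the libraries labelled Δnit-4 the nit-4 transcript was no lower (2.72 to 8.56 FPKM, against 2.69 to 6.10 FPKM in wild type). Directions drawn from those libraries therefore rest on the label alone. Mitochondrial genes took 0.0453 to 0.174% of FPKM in the 39 libraries of ammonium, nitrate, isoleucine, proline and tryptophan media and 0.00285 to 0.0258% in the other 47. Comparisons of those 5 media with the full medium also compare these ranges. Some other compared groups did not overlap either. Without nitrogen the share was 0.00505 to 0.00851% in labelled Δnit-4 libraries and 0.00362 to 0.00508% in Δnmr, against 0.0119 to 0.0226% in wild type. In full medium it was 0.00285 to 0.00399% in Δnmr, against 0.00827 to 0.0197% in wild type. With arginine, wild type had 0.0034 to 0.0073%. In mannose wild type had 0.0193 to 0.0237%, against 0.0146 to 0.0177% without carbon. In proline the share was 0.0952 to 0.121% in wild type, 0.076 to 0.080% in Δamn-1 and 0.0507 to 0.059% in Δnit-2. With ammonium wild type had 0.0561 to 0.0689%, below its proline libraries and its tryptophan libraries (0.072 to 0.105%). The part of these shares in a difference was not tested.

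The 6 genes lie on 6 supercontigs of the assembly, each on a different chromosome. Coordinates are as in the files and equal those of assembly NC12. gh11-1 lies on supercontig 12.1 at 8902056 to 8903806, gh11-2 on 12.5 at 6198659 to 6199980 and gh10-1 on 12.6 at 3456057 to 3457175. No annotated gene overlaps these 3. gh10-2 lies on 12.3 at 4598536 to 4599913 and shares 24 bases with NCU08190. gh28-1 lies on 12.7 at 2726293 to 2727854 and shares 294 bases with NCU02368. gh28-2 lies on 12.4 at 4669933 to 4671737 and shares 78 bases with NCU16860. Reads in shared bases cannot be assigned to 1 gene with certainty, because the strand setting is not given in the sources used here.

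**Figure D1:**
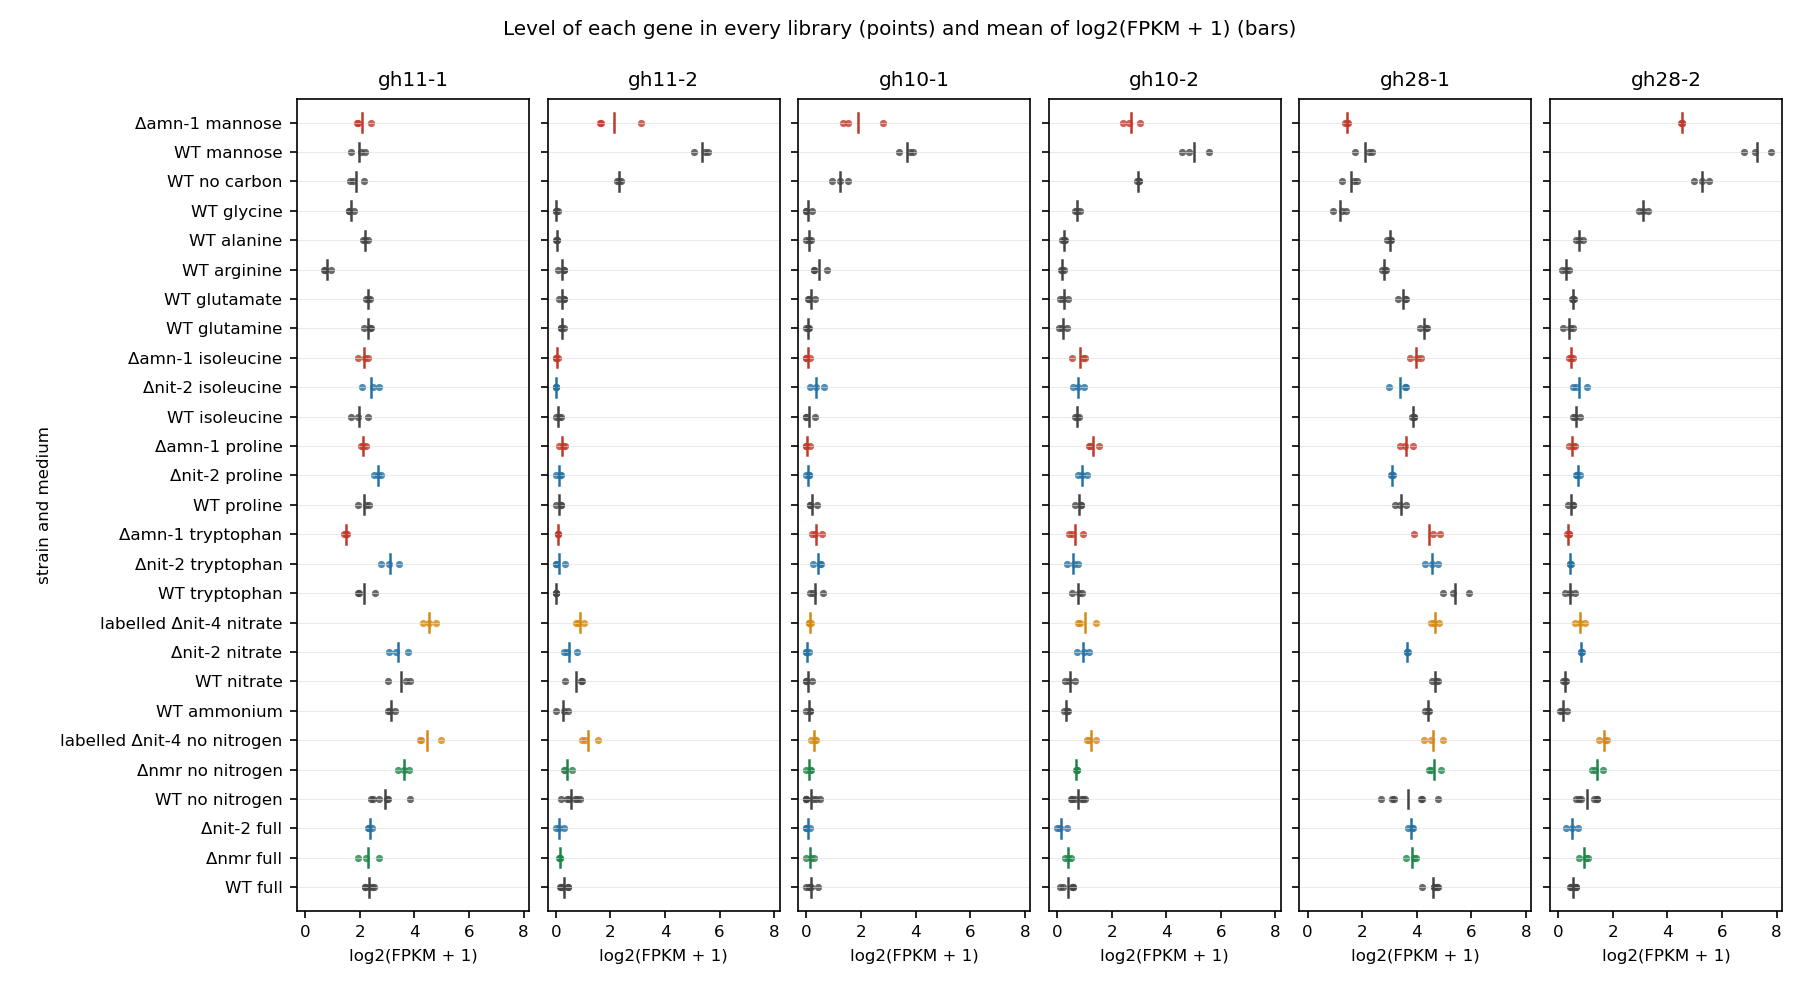
log2(FPKM + 1) of each gene (horizontal axes) in every library (points) of the 27 groups (down the page, with deletion strains above wild type of their medium); short bars are group means. gh11-2, gh10-1, gh10-2 and gh28-2 stand high in the mannose and carbon-free groups, gh28-1 is low there and in glycine, and gh11-1 is highest in libraries labelled Δnit-4.

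Across the 27 groups the genes fell into 3 kinds of pattern. gh11-2, gh10-1, gh10-2 and gh28-2 had their 3 highest group means in wild type mannose, wild type without carbon and Δamn-1 mannose. gh28-1 had those same 3 groups and glycine as its 4 lowest. gh11-1 differed little among them, with 3.30 ± 0.880 FPKM in Δamn-1 mannose, 2.98 ± 0.707 in wild type mannose and 2.67 ± 0.726 without carbon (n = 3 each). Among the first 4 genes, Pearson's r of log2(group mean FPKM + 1) lay between 0.88 and 0.95 over 27 groups. Without the 3 groups in mannose or lacking carbon, r lay between -0.16 and 0.36 over 24 groups, where most of these levels were near 0. These correlations are descriptions over group means that share libraries and depth.

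Transfer to mannose was compared with the full medium first. In this comparison 39.4% of all genes tested were called, and 5 of the 6 genes were called, 4 higher and 1 lower. The median of the 6 differences was 4.06 log2, against 0.14 for all genes tested. The carbon source differed between these media (2 mM mannose, against 2% sucrose) while ammonium nitrate was the same.

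The largest difference among the 6 genes was that of gh28-2, an exo-polygalacturonase that takes galacturonic acid units from chain ends. Its levels were 111, 148 and 222 FPKM in mannose, against 0.339, 0.384, 0.514, 0.572 and 0.584 FPKM in full medium. Every mannose library lay far above every full medium library. The means were 160.4 ± 56.3 FPKM (n = 3) in mannose and 0.479 ± 0.111 FPKM (n = 5) in full medium, a ratio of 335, and the difference was 6.72 log2 (SE 0.14, adjusted p = 2.1e-47). NCU16860, which shares bases with gh28-2, had at most 0.635 FPKM in mannose.

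The GH11 xylanase gh11-2 followed the same direction. It had 32.3, 43.0 and 46.6 FPKM in mannose, against 0.110, 0.131, 0.175, 0.372 and 0.381 FPKM in full medium. The full medium values stood for 2 to 7 estimated fragments per library, so its mean ratio of 174 is imprecise, while the groups were far apart. Its difference was 5.07 log2 (SE 0.17, adjusted p = 4.6e-37).

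Both GH10 xylanases were also higher in mannose. gh10-2 had 23.0, 27.7 and 47.1 FPKM in mannose, against 0.0835, 0.170, 0.482, 0.503 and 0.520 FPKM in full medium. All mannose libraries lay above all full medium libraries, with a difference of 4.58 log2 (SE 0.15, adjusted p = 1.0e-36). gh10-1 had 9.62, 12.8 and 13.8 FPKM in mannose, against 0, 0.0716, 0.0919, 0.129 and 0.359 FPKM in full medium. Its full medium libraries held 7 estimated fragments in all, so no ratio is given, and its difference was 3.53 log2 (SE 0.16, adjusted p = 7.3e-30). NCU08190, which shares 24 bases with gh10-2, was higher in mannose too (40.7 ± 1.69 FPKM, against 4.18 ± 1.04 FPKM in full medium).

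gh28-1, an endo-polygalacturonase that cuts within the pectin chain, went the other way. Its levels were 2.33, 3.81 and 4.12 FPKM in mannose, against 17.5, 23.5, 23.6, 25.5 and 26.4 FPKM in full medium. The groups did not overlap, and the difference was -2.47 log2 (SE 0.23, adjusted p = 4.1e-15). Its overlapping neighbour NCU02368 was at 39.7 ± 4.72 FPKM in mannose and 31.1 ± 1.34 FPKM in full medium and was not called. The other GH11 xylanase, gh11-1, had 2.21, 3.15 and 3.60 FPKM in mannose, against 3.56 to 4.74 FPKM (median 4.04) in full medium, and was not called.

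**Figure D2:**
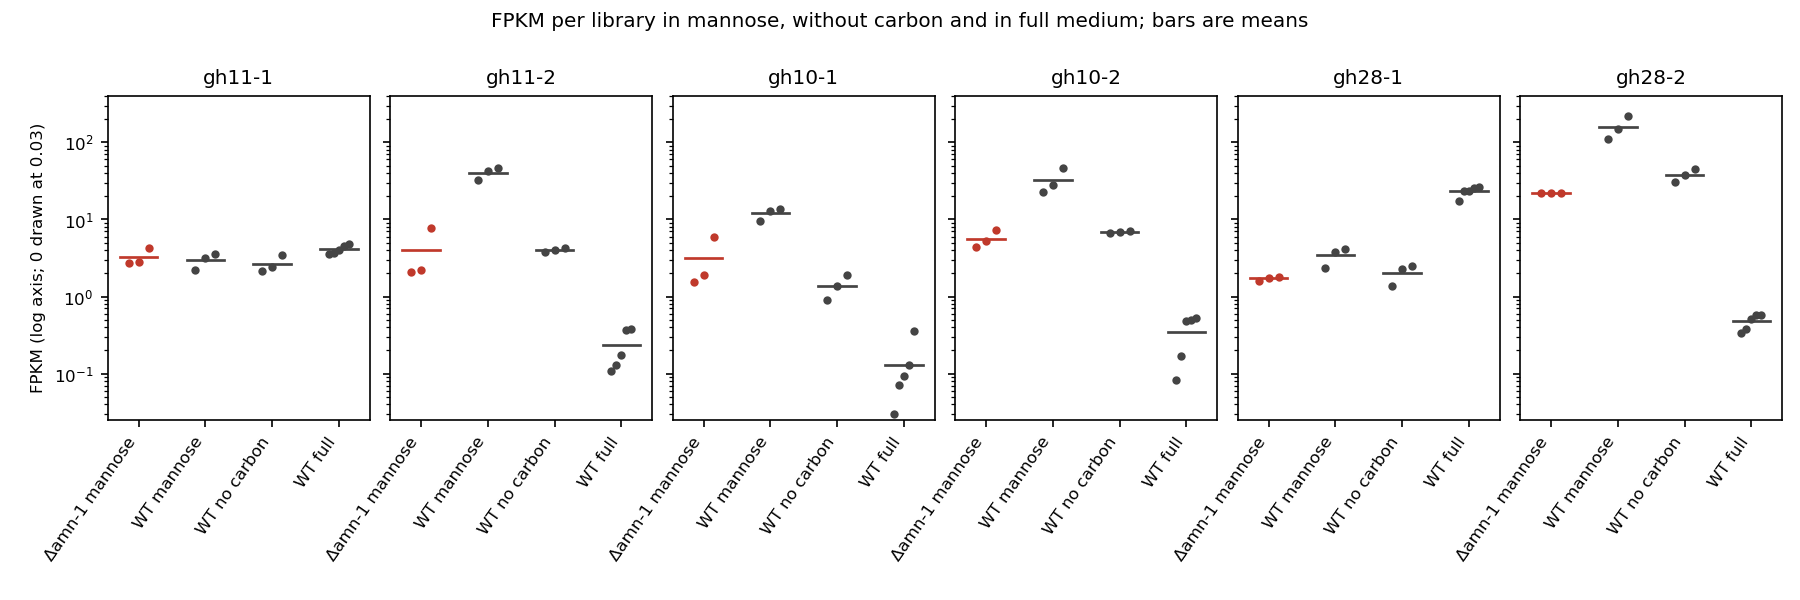
FPKM per library (points, log axis, with 0 drawn at 0.03) and means (bars) of the 6 genes in Δamn-1 and wild type in mannose, wild type without carbon and wild type in full medium. gh28-2 reached 222 FPKM in wild type mannose, lay near 22.1 FPKM in Δamn-1 and was below 0.6 FPKM in full medium, while gh28-1 was highest in full medium.

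Without carbon, 5 of the 6 genes were called against the full medium, 4 higher and 1 lower, where 36% of all genes tested were called. This comparison shares its full medium libraries with the one of mannose, so the values are given side by side. gh28-2 had 30.9, 38.0 and 44.9 FPKM without carbon, with a difference of 4.71 log2 (SE 0.14, adjusted p = 7.5e-39). gh10-2 had 6.62, 6.97 and 7.01 FPKM, with a difference of 2.56 log2 (SE 0.15, adjusted p = 2.1e-23). The 3 libraries of gh10-2 were close together and all above the highest full medium value of 0.520 FPKM. NCU08190, which shares bases with gh10-2, was called higher too. It was at 29.4 ± 1.17 FPKM without carbon and 4.18 ± 1.04 FPKM in full medium (2.57 log2).

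gh11-2 had 3.74, 3.98 and 4.29 FPKM without carbon and a difference of 2.03 log2 (SE 0.17, adjusted p = 2.9e-17). gh10-1 had 0.896, 1.36 and 1.87 FPKM and a difference of 1.06 log2 (SE 0.16, adjusted p = 1.7e-08). This call lay close to the threshold and was lost, at 0.91, when no carbon library 3, as numbered in the joint table, was left out and, at 0.96, with full medium libraries 1 to 3 by label alone. gh28-1 had 1.38, 2.29 and 2.47 FPKM and a difference of -3.001 log2 (SE 0.23, adjusted p = 2.2e-18), and all its libraries lay below those of the full medium. gh11-1 had 2.12, 2.40 and 3.50 FPKM, also below all full medium libraries (from 3.56 FPKM), and was not called.

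Mannose was then set against no carbon source directly, with the same ammonium nitrate in both. Here 11.2% of all genes tested were called, and 4 of the 6 genes were called, all higher in mannose. gh11-2 was 10.2 times as high on average in mannose as without carbon, at 40.6 ± 7.41 FPKM and 4.00 ± 0.278 FPKM, with a difference of 3.04 log2 (SE 0.19, adjusted p = 1.6e-21). gh10-1 averaged 12.1 ± 2.18 FPKM in mannose and 1.38 ± 0.490 FPKM without carbon, a difference of 2.47 log2 (SE 0.18, adjusted p = 2.3e-18). For both genes the lowest mannose library lay above the highest carbon-free library.

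gh10-2 averaged 32.6 ± 12.8 FPKM in mannose and 6.87 ± 0.216 FPKM without carbon, a difference of 2.03 log2 (SE 0.17, adjusted p = 1.4e-15). gh28-2 averaged 160.4 ± 56.3 FPKM in mannose and 37.9 ± 7.03 FPKM without carbon, a difference of 2.01 log2 (SE 0.16, adjusted p = 1.2e-16). The mannose libraries of both lay above all carbon-free ones. NCU08190, the neighbour of gh10-2, was not called here (0.46 log2). gh28-1 and gh11-1 had overlapping libraries in these media and were not called. gh28-1 was at 3.42 ± 0.958 FPKM in mannose and 2.05 ± 0.581 FPKM without carbon.

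Deletion of amn-1 was tested within the mannose medium. Of all genes tested 16.9% were called there, and 4 of the 6 genes were called, all lower in Δamn-1. The wild type mannose libraries are those of the comparisons above. gh11-2 fell most, with 2.06, 2.19 and 7.69 FPKM in Δamn-1, against 32.3, 43.0 and 46.6 FPKM in wild type. Its difference was -3.23 log2 (SE 0.19, adjusted p = 5.4e-23), and 1 Δamn-1 library, labelled 1, stood above the other 2. gh10-1 had 1.54, 1.88 and 6.00 FPKM in Δamn-1, against 9.62, 12.8 and 13.8 FPKM in wild type. Its difference was -1.80 log2 (SE 0.18, adjusted p = 2.2e-13), and its highest Δamn-1 library was again that labelled 1.

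gh28-2 had 21.8, 22.1 and 22.3 FPKM in Δamn-1, against 111, 148 and 222 FPKM in wild type. The Δamn-1 libraries were almost equal and all below wild type, with a difference of -2.75 log2 (SE 0.16, adjusted p = 6.8e-23). gh10-2 had 4.39, 5.26 and 7.33 FPKM in Δamn-1, against 23.0, 27.7 and 47.1 FPKM in wild type, a difference of -2.29 log2 (SE 0.17, adjusted p = 5.6e-18). Its neighbour NCU08190 was lower too, at 22.5 ± 0.215 FPKM against 40.7 ± 1.69 FPKM, but under the threshold (-0.82 log2). gh28-1 had 1.61, 1.75 and 1.80 FPKM in Δamn-1, against 2.33, 3.81 and 4.12 FPKM in wild type. These libraries did not overlap, but its difference of -0.68 log2 (SE 0.26) was under the threshold.

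The Δamn-1 levels in mannose were set beside those of wild type without carbon, with no test between these groups, which differ in strain and medium. For gh11-2, gh10-1, gh10-2 and gh28-1 the ranges overlapped: gh11-2 spanned 2.06 to 7.69 FPKM in Δamn-1 mannose and 3.74 to 4.29 FPKM in wild type without carbon. For gh28-2 the Δamn-1 libraries, up to 22.3 FPKM, lay below the carbon-free wild type libraries, from 30.9 FPKM.

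In media with sucrose the deletion of amn-1 gave no call among the 6 genes. The share called over all genes was 0.584% in isoleucine, 5.46% in proline and 0.643% in tryptophan, with 0 of the 6 genes by limma in each, and 0, 1 and 2 of them at an unadjusted p under 0.05. gh28-1 in tryptophan came nearest, with 13.8, 23.2 and 27.6 FPKM in Δamn-1, against 29.9, 39.5 and 59.2 FPKM in wild type. These did not overlap, and the difference was -0.96 log2 (SE 0.26, adjusted p = 0.029). It passed the threshold when a library was left out, at -1.18 without wild type tryptophan library 3, -1.03 without Δamn-1 tryptophan library 1 and -1.16 without library 2. gh10-2 in proline had 1.26, 1.34 and 1.92 FPKM in Δamn-1, against 0.563, 0.824 and 0.831 FPKM in wild type, a difference of 0.52 log2 under the threshold.

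The difference between the amn-1 effect in mannose and that in each sucrose medium was itself tested. It was called for gh11-2, gh10-1, gh10-2 and gh28-2 against all 3 media, where 17.1% of all genes tested were called against isoleucine, 22% against proline and 16.9% against tryptophan. For gh11-2 it was -3.16 log2 against isoleucine, -3.34 against proline and -3.31 against tryptophan (SE 0.26, adjusted p = 4.7e-15 or lower). These calls were fixed by the levels, because all 4 genes were near 0 in wild type in the sucrose media. A fall to 0 FPKM there could have reached at most 0.13 log2 for gh11-2, 0.33 for gh10-1, 0.79 for gh10-2 and 0.65 for gh28-2, against measured falls in mannose of 1.80 to 3.23 log2. The calls therefore do not show whether the deletion acts differently on these genes in sucrose. gh10-1 lost its call against isoleucine (-1.89 log2, adjusted p = 0.056) and proline (-1.10 log2, adjusted p = 0.27) with a pseudocount of 0.1.

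**Figure D3:**
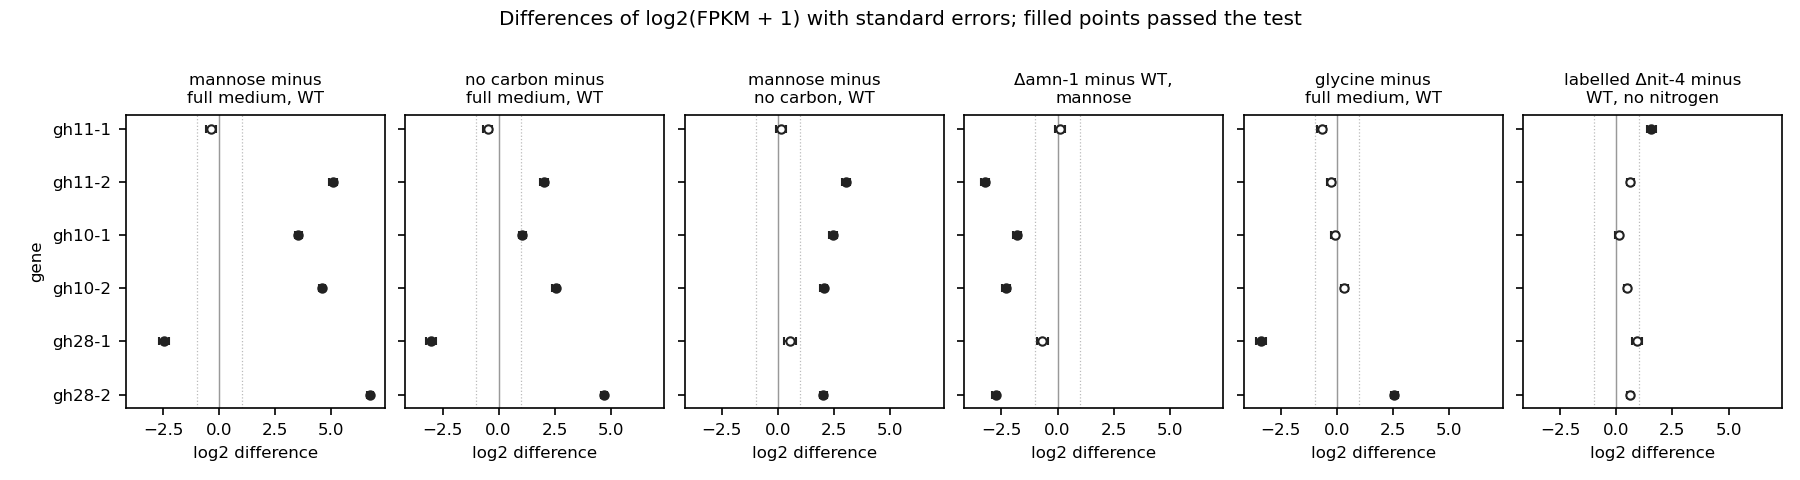
Differences of log2(FPKM + 1) (points) with standard errors (bars, often smaller than the point) of the 6 genes in 6 comparisons; filled points passed the test, dotted lines mark 1 log2 in either direction. gh11-2, gh10-1, gh10-2 and gh28-2 passed in both mannose comparisons and in Δamn-1 mannose, comparisons that share the wild type mannose libraries, gh28-1 and gh28-2 lie on opposite sides in mannose, without carbon and in glycine, and gh11-1 alone of the 6 passed in libraries labelled Δnit-4 without nitrogen.

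Among the wild type media with sucrose, gh28-2 was called with glycine alone on this scale. It had 6.79, 7.63 and 8.80 FPKM in glycine, against 0.339 to 0.584 FPKM (median 0.514) in full medium. The groups lay far apart, with a mean ratio of 16.2 and a difference of 2.56 log2 (SE 0.14, adjusted p = 6.0e-25). gh28-1 had 0.903, 1.38 and 1.63 FPKM in glycine, against 17.5 to 26.4 FPKM (median 23.6) in full medium. The glycine mean was its lowest of all 27 groups. Its difference was -3.40 log2 (SE 0.23, adjusted p = 9.3e-21). Its overlapping neighbour NCU02368 was at 19.4 ± 1.43 FPKM in glycine and 31.1 ± 1.34 FPKM in full medium and was not called.

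The 2 called genes of 6 in glycine compare with 33.5% of all genes tested, so the number of calls does not set these genes apart there. The 4 xylanases were not called in glycine. gh11-2 and gh10-1 had at most 0.156 FPKM, gh10-2 was at 0.678 ± 0.0975 FPKM against 0.352 ± 0.208 FPKM in full medium, and gh11-1 at 2.17 ± 0.220 FPKM against 4.09 ± 0.522 FPKM (-0.68 log2, adjusted p = 0.0020). Glycine was given at 200 mM, above most other nitrogen sources, and dose and source cannot be told apart.

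**Figure D4:**
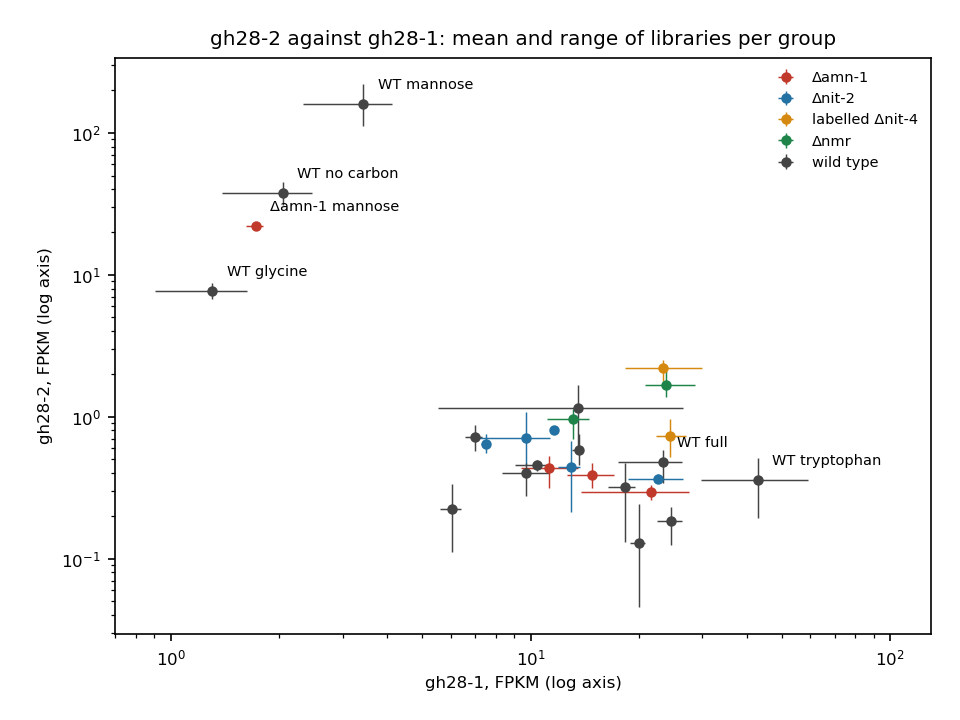
gh28-2 (vertical, FPKM, log axis) against gh28-1 (horizontal, FPKM, log axis), with the mean (point) and range (bars) of the libraries of each of the 27 groups. The mannose, carbon-free and glycine groups lie at the upper left, with gh28-2 above 6 FPKM and gh28-1 below 5 FPKM, and all others at the lower right.

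The polygalacturonases had opposite levels in the mannose, carbon-free and glycine groups. Pearson's r of their log2(group mean FPKM + 1) was -0.70 over 27 groups, -0.52 over the 24 groups outside mannose and carbon-free media, and 0.05 over the 23 groups left without glycine as well, so that no opposition was seen among those. The last value was added after the others were seen. In wild type mannose gh28-2 was the higher of the pair per length, at 160.4 FPKM with gh28-1 at 3.42 FPKM. In full medium gh28-1 was the higher, at 23.3 FPKM with gh28-2 at 0.479 FPKM.

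gh28-1 was called in more of the comparisons between sucrose media of wild type than any other of the 6 genes. Its calls against full medium were all falls. For gh11-2, gh10-1, gh10-2 and gh28-2 a fall from full medium could not be called, because their means there were at most 0.479 FPKM. The ranking is therefore fixed in part by these levels. gh28-1 was lower than in full medium with alanine, at 6.56, 7.16 and 7.34 FPKM, where 5.15% of all genes tested and 1 of the 6 genes were called (-1.59 log2, SE 0.23, adjusted p = 1.1e-07). With arginine it had 5.59, 6.12 and 6.39 FPKM (-1.78 log2, SE 0.23, adjusted p = 4.6e-10), and with proline 8.31, 9.52 and 11.2 FPKM (-1.18 log2, SE 0.23, adjusted p = 7.9e-06). All of these libraries lay below the 17.5 FPKM of the lowest full medium library. The neighbour NCU02368 was also lower with arginine (12.8 FPKM, against 31.1 FPKM in full medium, -1.23 log2). The share called over all genes was 32% with arginine, with 2 of the 6 genes, and 27.3% with proline, with 1.

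Glutamate gave 9.05, 10.9 and 11.3 FPKM of gh28-1 and a difference of -1.08 log2 (SE 0.23, adjusted p = 1.6e-04), as the 1 gene of 6 called where 5.35% of all genes were. This call was lost at -0.97 with the per-sample values as deposited, at -0.93 with full medium libraries 4 and 5 by label alone, and at -0.99 without glutamate library 1. With glutamine gh28-1 was at 18.4 ± 1.69 FPKM, its libraries overlapping those of full medium, where 1.13% of all genes and 0 of the 6 were called by limma (0 at an unadjusted p under 0.05). With isoleucine it was at 13.7 ± 0.552 FPKM (-0.72 log2, adjusted p = 0.0051) and with ammonium at 20.04 ± 1.02 FPKM. Neither was called, and 0 of the 6 genes were, beside 22% and 7.81% of all genes (2 of the 6 at an unadjusted p under 0.05 in each).

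Tryptophan gave the highest gh28-1 of all groups, with 29.9, 39.5 and 59.2 FPKM, all above full medium. Its difference from full medium was 0.81 log2 (SE 0.23, adjusted p = 0.0014) and under the threshold, which it passed, at 1.04, without tryptophan library 3. Of the 6 genes 0 were called by limma where 28.6% of all genes were (2 at an unadjusted p under 0.05). Against ammonium, at 18.9, 20.5 and 20.8 FPKM, it was called at 1.01 log2 (SE 0.26, adjusted p = 6.1e-04), with 20.9% of all genes tested. That value sits on the threshold: it was 0.75 without tryptophan library 1, 0.97 without ammonium library 3, and 0.999 with median-ratio scaling.

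gh11-1 was called in comparisons of nitrogen sources and in none of the carbon media. It was lowest with arginine, at 0.608, 0.642 and 0.934 FPKM, against 3.56 to 4.74 FPKM (median 4.04) in full medium. The arginine libraries lay far below all others of wild type, with a difference of -1.56 log2 (SE 0.20, adjusted p = 3.6e-10). With nitrate gh11-1 had 7.14, 12.02 and 13.5 FPKM, all above full medium, a difference of 1.19 log2 (SE 0.20, adjusted p = 9.5e-07). It was the 1 gene of 6 called with nitrate, beside 10.9% of all genes tested, and fell under the threshold, at 0.97, with the per-sample values as deposited.

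gh11-1 averaged 7.81 ± 0.856 FPKM with ammonium, against 4.09 ± 0.522 FPKM in full medium, without overlap and without a call (0.79 log2). Against ammonium it was lower with isoleucine, at 2.16, 2.86 and 3.93 FPKM against 7.09, 7.59 and 8.76 FPKM (-1.16 log2, SE 0.23, adjusted p = 2.0e-05), where 11.6% of all genes tested were called. Proline (3.49 ± 0.624 FPKM) and tryptophan (3.51 ± 1.19 FPKM) gave like levels, with differences from ammonium of -0.98 and -0.99 log2 just under the threshold. With proline gh11-1 passed, at -1.04, without ammonium library 2 and, at -1.01 and -1.06, without proline library 1 or 3. With tryptophan it passed, at -1.05 and -1.01, without ammonium library 2 or 3 and, at -1.199, without tryptophan library 1. gh28-1 with proline differed from ammonium by -0.99 log2 and passed, at -1.03 without ammonium library 3 and -1.09 without proline library 1. With proline 17.4% of all genes were called against ammonium and 0 of the 6 by limma (3 at an unadjusted p under 0.05), and with nitrate 0.993% and 0 of the 6 (1 at an unadjusted p under 0.05).

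Without nitrogen 16.8% of all genes tested were called against the full medium, and 0 of the 6 by limma, although 5 had an unadjusted p under 0.05. gh11-1 was at 6.98 ± 3.31 FPKM without nitrogen and 4.09 ± 0.522 FPKM in full medium (0.57 log2, adjusted p = 0.0024), and gh28-2 at 1.15 ± 0.510 FPKM and 0.479 ± 0.111 FPKM (0.51 log2, adjusted p = 1.5e-04). Both overlapped full medium, and gh28-2 passed, at 1.02 log2, with a pseudocount of 0.1. The labels number the wild type libraries without nitrogen 1 to 6, and those numbered 1 to 3 stood apart from those numbered 4 to 6 for the polygalacturonases. In median-ratio scaled values gh28-1 was at 19.9 ± 5.29 FPKM in libraries 1 to 3 and 7.52 ± 1.49 FPKM in libraries 4 to 6. gh28-2 was at 0.687 ± 0.110 FPKM in libraries 1 to 3 and 1.72 ± 0.143 FPKM in libraries 4 to 6. The 2 sets of gh28-1 and gh28-2 libraries did not overlap, while gh11-1 was at 9.03 ± 3.50 FPKM in libraries 1 to 3 and 5.16 ± 0.661 FPKM in libraries 4 to 6. On that scale full medium had 0.573 ± 0.0470 FPKM of gh28-2 in libraries 1 to 3. It had 0.392 ± 0.0362 FPKM in libraries 4 and 5, so the gh28-2 difference from full medium also depends on the set. Whether the numbers mark 2 experiments is not given in the sources used here.

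The difference of gh28-1 without nitrogen from full medium followed these sets. It was -0.91 log2 (SE 0.19, adjusted p = 3.7e-05) over all libraries. As numbered in the joint table, it passed, at up to -1.13, without library 1, 4 or 5 of no nitrogen or library 5 of full medium. The joint table's numbers do not follow the labels. By label number the difference was -0.39 log2 (adjusted p = 0.077) with libraries 1 to 3 of both media. With libraries 4 and above by label it was -1.45 log2 (adjusted p = 2.9e-08).

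In nitrate gh28-1 was lower without nit-2, an activator of genes for the use of poorer nitrogen sources. It had 11.4, 11.5 and 11.8 FPKM in Δnit-2, against 22.5, 24.8 and 26.4 FPKM in wild type. The groups were far apart relative to their spread, and the difference of -1.02 log2 (SE 0.26, adjusted p = 0.0011) just passed the threshold, as the 1 gene of 6 where 9.01% of all genes were called. It fell under it, at -0.97 log2, without wild type nitrate library 2 and, at -0.83, with the per-sample values as deposited.

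In full medium gh28-1 was at 12.9 ± 0.910 FPKM in Δnit-2 and 23.3 ± 3.47 FPKM in wild type. In tryptophan it was at 22.6 ± 3.93 FPKM in Δnit-2 and 42.9 ± 14.9 FPKM in wild type. Neither pair of groups overlapped, and the differences of -0.79 and -0.85 log2 were under the threshold. The difference in tryptophan passed, at -1.08 log2, without wild type tryptophan library 3. In isoleucine gh28-1 was at 9.72 ± 2.40 FPKM in Δnit-2 and 13.7 ± 0.552 FPKM in wild type, and in proline at 7.53 ± 0.244 FPKM in Δnit-2 and 9.68 ± 1.46 FPKM in wild type. These pairs of groups did not overlap either, and neither difference was called.

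In Δnit-2 the other genes gave no call. For gh11-2, gh10-1, gh10-2 and gh28-2 a fall could not be called, because their wild type means in these media were at most 0.739 FPKM. The counts below therefore do not show whether nit-2 raises these genes. gh11-1 in tryptophan was at 5.81, 7.39 and 9.83 FPKM in Δnit-2, against 2.78, 2.88 and 4.88 FPKM in wild type, a difference of 0.95 log2 that passed, at 1.15, without wild type tryptophan library 1 and, at 1.11, without Δnit-2 tryptophan library 2. The counts were 0 of the 6 by limma in full medium, isoleucine, proline and tryptophan, with 1, 1, 1 and 2 of them at an unadjusted p under 0.05. Over all genes 2.63%, 5.2%, 9.03% and 6.8% were called in these 4 media. Tests of the nit-2 effect in each medium against that in full medium called 0 of the 6 genes by limma, beside 6.57% of all genes for nitrate, 4.64% for isoleucine, 10.3% for proline and 7.48% for tryptophan. At an unadjusted p under 0.05 these gave 2, 0, 0 and 1 of the 6.

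The libraries labelled Δnit-4 held the highest gh11-1 of the series. In nitrate they had 19.1, 22.3 and 26.4 FPKM, against 7.14, 12.02 and 13.5 FPKM in wild type. They did not overlap, and the difference was 1.02 log2 (SE 0.23, adjusted p = 3.3e-04). Over all genes 7.2% were called. For gh11-2, gh10-1, gh10-2 and gh28-2 a fall could not be called, because their wild type means in nitrate were at most 0.701 FPKM. gh11-1 was the 1 gene of 6 called. The call was lost, at 0.77 log2 without wild type nitrate library 1 and at 0.91 without labelled Δnit-4 nitrate library 2. With these groups alone and median-ratio scaled per-sample values, the adjusted p was 0.0501.

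Without nitrogen the libraries labelled Δnit-4 had 17.3, 18.1 and 30.2 FPKM of gh11-1, against 4.29 to 13.3 FPKM (median 6.25) in the 6 wild type libraries. The lowest of the labelled Δnit-4 libraries lay above the highest wild type library, and the difference was 1.56 log2 (SE 0.19, adjusted p = 7.8e-09). Of all genes tested 5.33% were called, and 1 of the 6. For gh11-2, gh10-1 and gh10-2 a fall could not be called, because their wild type means without nitrogen were at most 0.716 FPKM. The gh11-1 difference was 1.16 log2 with wild type libraries 1 to 3 by label alone and 1.81 log2 with libraries 4 to 6, called in both. gh10-3, a GH10 xylanase outside the 6, was at 37.3 ± 10.98 FPKM in the labelled Δnit-4 libraries and 17.8 ± 4.21 FPKM in wild type without nitrogen (1.02 log2, adjusted p = 3.0e-05).

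Some members at low level in these strains had differences under the threshold that passed with a pseudocount of 0.1. gh28-2 in nitrate was at 0.807 ± 0.0288 FPKM in Δnit-2 and 0.735 ± 0.225 FPKM in libraries labelled Δnit-4, against 0.185 ± 0.0542 FPKM in wild type. Its differences were 0.61 and 0.54 log2, and 1.69 and 1.54 with that pseudocount. gh10-2 in nitrate was at 1.06 ± 0.541 FPKM in libraries labelled Δnit-4 and 0.398 ± 0.186 FPKM in wild type (0.54 log2), and gh11-2 without nitrogen at 1.32 ± 0.522 FPKM in libraries labelled Δnit-4 and 0.510 ± 0.264 FPKM in wild type (0.61 log2); these were 1.195 and 1.29 with that pseudocount. gh28-2 without nitrogen was at 2.19 ± 0.364 FPKM in libraries labelled Δnit-4 and 1.15 ± 0.510 FPKM in wild type (0.60 log2, adjusted p = 4.9e-04), and stayed under the threshold at that pseudocount.

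gh28-1 without nitrogen was at 23.3 ± 5.93 FPKM in the libraries labelled Δnit-4 and at 23.9 ± 4.15 FPKM in Δnmr, against 13.6 ± 8.04 FPKM in wild type. Both overlapped wild type, with differences of 0.90 and 0.94 log2 under the threshold. Without wild type library 1, as numbered in the joint table, these were 1.12 and 1.16 log2, past it. By the same numbering, the labelled Δnit-4 difference also passed, at 1.05, without its own library 1. The Δnmr difference passed, at 1.03 to 1.04, without wild type library 4 or 5 or Δnmr library 2. With wild type libraries 1 to 3 by label the Δnmr difference was 0.26 log2 (adjusted p = 0.28), and with libraries 4 to 6 it was 1.54 log2 (adjusted p = 4.6e-10), so the set of wild type libraries decides this call. The labelled Δnit-4 difference was likewise not called with libraries 1 to 3 and was called, at 1.46 log2 (adjusted p = 9.6e-09), with libraries 4 to 6. In full medium gh28-1 was at 11.1, 13.7 and 14.5 FPKM in Δnmr, against 17.5 to 26.4 FPKM (median 23.6) in wild type, a difference of -0.78 log2 (SE 0.23). gh11-1 without nitrogen had 9.56, 11.2 and 13.1 FPKM in Δnmr, against 4.29 to 13.3 FPKM (median 6.25) in wild type. These overlapped through the highest wild type library, and the difference of 0.70 log2 (adjusted p = 0.0023) was under the threshold.

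No gene of the 6 was called in Δnmr by limma, beside 4.41% of all genes in full medium and 5.23% without nitrogen (2 and 3 of the 6 at an unadjusted p under 0.05). For gh11-2, gh10-1 and gh10-2 a fall could not be called, because their wild type means in these media were at most 0.716 FPKM. The difference between the nmr effects in these media was called for gh28-1 alone of the 6, at 1.72 log2 (SE 0.32, adjusted p = 4.9e-05), where 6.47% of all genes were called. It was 1.18 log2 with wild type libraries 1 to 3 by label and 2.24 log2 with libraries 4 and above, past the threshold in both.

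**Figure D5:**
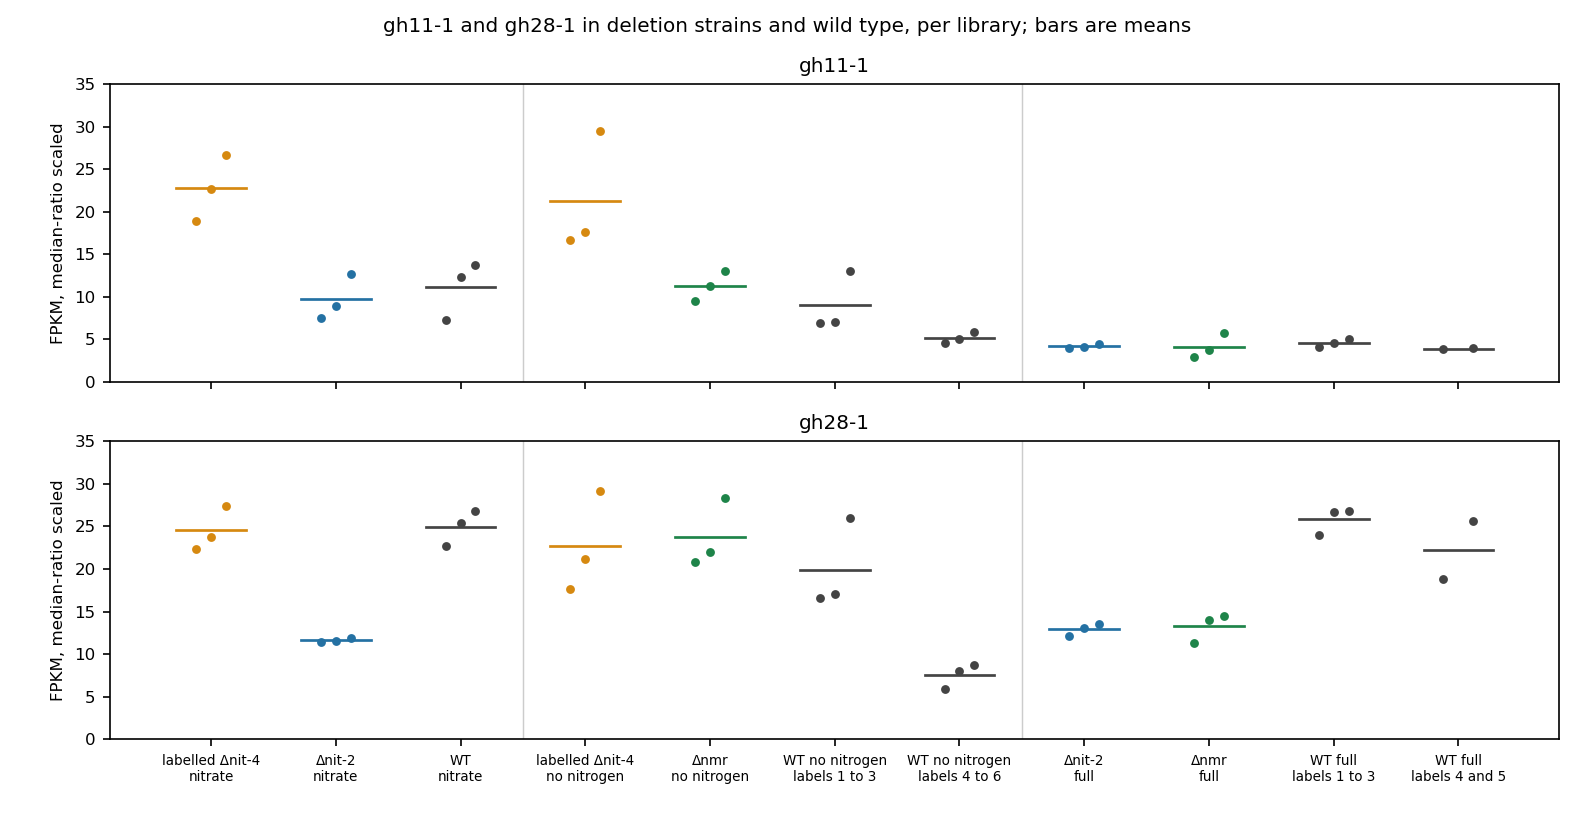
FPKM after median-ratio scaling (vertical axis) of gh11-1 (top) and gh28-1 (bottom) per library (points) with means (bars), in nitrate (left), without nitrogen (middle) and in full medium (right), with wild type libraries split by label number. gh11-1 is highest in libraries labelled Δnit-4, and gh28-1 in wild type without nitrogen splits into 19.9 FPKM for labels 1 to 3 and 7.52 FPKM for labels 4 to 6.

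Other genes of xylan and pectin use, from lists drawn up with earlier results known, were read beside the members. In mannose against full medium 2 of 5 further xylan genes were higher and 0 lower, with a list median of 0.35 log2. That is 40% of the list beside 39.4% of all genes, so the count is at the background. They were gh3-7, of the β-xylosidase family GH3 (1.51 ± 0.201 FPKM in mannose and 0.0536 ± 0.0436 FPKM in full medium), and xyr-1, the xylose reductase. xyr-1 had 10.4, 15.3 and 33.9 FPKM in mannose, against a mean of 4.05 ± 0.367 FPKM in full medium. The GH10 xylanases gh10-3 and gh10-4 were not called in mannose, at 7.81 ± 2.31 and 0.361 ± 0.00431 FPKM, nor was a xylitol dehydrogenase. In glycine, where gh10-1 and gh10-2 were not called, gh10-4 was at 20.3 ± 1.84 FPKM, against 0.0660 ± 0.0665 FPKM in full medium (4.32 log2, SE 0.08, adjusted p = 8.95e-51).

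Of 3 further pectin genes 2 were higher in mannose, beside 39.4% of all genes called, with a list median of 2.14 log2. gat-1, a galacturonic acid transporter, had 89.6, 92.7 and 129.6 FPKM in mannose, against 0.154 to 0.313 FPKM (median 0.184) in full medium, a difference of 6.42 log2 (SE 0.12, adjusted p = 4.7e-51). In Δamn-1 mannose gat-1 was at 33.7 ± 4.47 FPKM, below wild type (-1.58 log2, adjusted p = 4.0e-16). ply-1, a pectate lyase, was at 17.6 ± 2.01 FPKM in mannose and 3.33 ± 1.195 FPKM in full medium, and at 3.27 ± 0.140 FPKM in Δamn-1 mannose (-2.11 log2 against wild type, adjusted p = 3.0e-10). ce8-1, a pectin methylesterase, was not called in either comparison.

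Of 8 regulators 5 were higher and 1 lower in mannose than in full medium, 75% of the list beside 39.4% of all genes, with a list median of 1.41 log2. xlr-1 was at 32.0 ± 4.46 FPKM in mannose and 1.43 ± 0.333 FPKM in full medium (3.76 log2, SE 0.14, adjusted p = 1.1e-33). pdr-2 was at 49.3 ± 7.42 FPKM in mannose and 2.41 ± 0.306 FPKM in full medium (3.88 log2), and clr-1, clr-2 and pdr-1 were also higher, by 1.35 to 1.88 log2. cre-1 was the 1 lower regulator, at 12.99 ± 2.29 FPKM in mannose and 81.3 ± 4.85 FPKM in full medium (-2.57 log2, SE 0.14, adjusted p = 1.1e-25). In Δamn-1 mannose cre-1 was at 27.4 ± 0.764 FPKM, above wild type (1.04 log2, adjusted p = 6.3e-08), and clr-2 and vib-1 were below wild type (-1.54 and -1.11 log2). xlr-1 was at 22.0 ± 1.10 FPKM there and under the threshold (-0.52 log2).

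All glycoside hydrolases outside the 6 numbered 73 by symbol, of which 65 were tested, and 3 of the 73 (gh10-3, gh10-4 and gh3-7) are also among the xylan genes above. In mannose against full medium 29 were higher and 3 lower (49.2% beside 39.4% of all genes), with a median of 0.79 log2 beside 0.14 for all genes. Without carbon 20 were higher and 4 lower (36.9% beside 36% of all genes), with a median of 0.61 log2 beside 0.10. In Δamn-1 mannose 2 were higher and 8 lower (15.4% beside 16.9% of all genes), with a median of -0.16 log2 beside -0.04. The last 2 shares are at the background. In Δamn-1 mannose the largest of these falls was that of gh1-1, at 12 FPKM in Δamn-1 and 52.5 FPKM in wild type (-2.01 log2, SE 0.19). The 4 lower members among the 6 had differences of -1.80 to -3.23 log2 there.

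For each gene the 3 others with the most similar pattern were found by Pearson's r of log2(group mean FPKM + 1), over 27 groups and among 7646 genes with a highest group mean of at least 5 FPKM. gh28-2 was closest to NCU07964 (r = 0.987), gla-2 (0.977), named for a glucoamylase, and con-13 (0.969), named for conidiation. gh10-2 was closest to NCU01866 (0.967), NCU09491 (0.959) and NCU08191 (0.956), and gh10-1 to NCU09957 (0.968), NCU08785 (0.955) and NCU01866 (0.948). gh11-2 was closest to NCU01866 (0.953), NCU08785 (0.950) and the member gh10-2 (0.946). gh11-1 was closest to NCU04991 (0.808), gh10-3 (0.753) and NCU04190 (0.747), and gh28-1 to NCU03138 (0.846), NCU05259 (0.842) and NCU04987 (0.842).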

How the data were processed

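The authors' deposited values are FPKM, held in a table for each sample, with confidence bounds, and in a joint table of the series. The tools named in the submitters' processing notes are Cufflinks 2.2.1, Cuffnorm 2.2.1 and HISAT2 2.1.0. Neither build nor strand setting was given in these sources. The joint table held 9598 entries, 153 of them merged genes. Its columns equal the per-sample values times 1 factor each but are numbered differently in 51 cases, so they were used by group, and libraries left out are named by that table's numbers.

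FPKM are not counts, so limma 3.58.1 (R 4.3.3) was run on log2(FPKM + 1) of all 86 samples, with 1 mean per group and a trended prior, and p-values were adjusted by the Benjamini-Hochberg method across the 8558 genes with at least 1 FPKM in 3 or more samples (59 residual and 3.73 prior degrees of freedom). The code was checked on simulated data. Groups were compared in 31 contrasts, and deletion effects between media in 8. Replicate numbers do not pair libraries (correlations of -0.34 to 0.40). Replicates held 0 identical pairs. Fragments were estimated from the upper confidence bound and came out whole (within 0.05) in 78.5% of cases under 20 fragments.

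The members, lists and thresholds were chosen with earlier results of these data known. The identifiers of amn-1, pdr-1, pdr-2, gat-1, ply-1 and ce8-1 and of the xylitol dehydrogenase came from background knowledge, and gene roles are background. Members were named in every comparison; uncalled pairs between groups with an adjusted p under 0.05 and at least 0.5 log2 were named after their values were seen. Of the other glycoside hydrolases, those named are among the 3 largest called differences of a comparison. Alternatives were a pseudocount of 0.1, no filter, a filter at 10 FPKM, median-ratio scaling, the per-sample values, only the groups compared with and without the replicate number as a block, each library left out, and wild type libraries by label number. Tables used pandas 2.3.3 and numpy 2.4.6 in Python 3.11.15, and figures matplotlib 3.10.9. Sequences were not used here.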

Additional observations from a re-analysis of the deposited data

Results flagged for a closer look

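In wild type without nitrogen, 1 of the 6 gh11-1 values stood apart from the rest at 13.3 FPKM, with the next at 7.14 FPKM. Its gap to the next value was 0.684 of the range. It was the 1 group of 12 to meet this criterion, which chance meets in about 1 of 20 groups.

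The effect of the amn-1 deletion in mannose and in the sucrose media gave a called difference for 4 genes, which the levels fixed: near 0 in wild type in sucrose, these genes could fall there by at most 0.79 log2. The effect in mannose minus that in isoleucine was -3.16 log2 for gh11-2, -1.74 for gh10-1, -2.41 for gh10-2 and -2.57 for gh28-2. Minus that in proline it was -3.34 for gh11-2, -1.62 for gh10-1, -2.81 for gh10-2 and -2.78 for gh28-2. Minus that in tryptophan it was -3.31 for gh11-2, -1.84 for gh10-1, -2.19 for gh10-2 and -2.69 for gh28-2. The 3 contrasts share the mannose libraries and are not independent, and gh10-1 lost its calls against isoleucine and proline with a pseudocount of 0.1.

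The effect of the nmr deletion on gh28-1 differed between no nitrogen and full medium by 1.72 log2. The wild type libraries without nitrogen fall into sets by label number for this gene, at 19.9 ± 5.29 FPKM for labels 1 to 3 and 7.52 ± 1.49 FPKM for labels 4 to 6. The difference was 1.18 log2 with wild type libraries 1 to 3 and 2.24 log2 with libraries 4 and above, called in both.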

How the results depend on the processing

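Of 69 pairs of gene and comparison run under every alternative that could be fitted, 44 were called, 9 of these lost the call under at least 1 alternative, and 0 reversed. The calls in mannose, without carbon and for Δamn-1 in mannose, held under each alternative that could be fitted, except that of gh10-1 without carbon, whose losses are given above and which was also lost under the replicate block (0.96 log2). Calls among the members against ammonium numbered 2, with 12 at a pseudocount of 0.1, 1 with median-ratio scaling and 2 to 4 with a library left out. For Δnit-2 they numbered 1, with 5 at a pseudocount of 0.1, 0 with per-sample values and 0 to 2 with a library left out. For Δnit-4 and Δnmr they numbered 2, with 6 at a pseudocount of 0.1, 4 with wild type libraries 4 and above by label and 1 to 4 with a library left out. The replicate block gave 0 calls there, and the same fit without the block, added after seeing the data, gave 1. In the block fit gh11-1 in libraries labelled Δnit-4 was at 1.00 log2 (adjusted p = 0.12) in nitrate and 1.16 (adjusted p = 0.071) without nitrogen. Replicate numbers do not pair these libraries. The cause of these changes was not tested, except that a pseudocount of 0.1 enlarges differences between values near 0. gh10-1 could not be fitted at a filter of 10 FPKM in any comparison. Depth limits gh11-2 and gh10-1 outside mannose and carbon-free media, where most libraries held few or 0 fragments.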
